A study of Mus musculus with 9 samples.

Results

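C1qtnf5, Mfrp and Htra1 are mouse genes whose human counterparts have been tied to disease of the macula or of the outer retina. Their members on the array were all probes, other than controls, whose gene name in the scanner files was one of these symbols, and this gave 2 of 39429 probes, for 2 of the 3 genes. C1qtnf5 had 1 probe, Htra1 had 1 probe and Mfrp had 0 probes of its own name. RNA levels were read on 9 Agilent arrays of 2 colours, 3 each for the choroid (CH), the retinal pigment epithelium (RPE) and the photoreceptors (PR), all laser dissected from female C57BL/6 mice of 6 months (within 2 weeks) by the labels. The paper's methods give a younger age. No animal was treated. Tissue RNA carried the dye Cy5 and a common reference of RPE and choroid RNA carried Cy3, and the dyes ran the same way on all 9 arrays. The sources used here do not say which samples came from separate animals, so that the p-values measure the spread between these samples only.

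C1QTNF5 is a short-chain collagen that carries a globular C1q-like domain and is secreted by the RPE. Mutations in it cause late-onset retinal degeneration, in which deposits build up between the RPE and the choroid. MFRP is a membrane protein of the RPE with a frizzled-related domain, and its loss causes very short eyes and retinal degeneration. Both genes lie together on the same strand and are known to be transcribed as 1 joint RNA from which both proteins can be made. HTRA1 is a secreted serine protease that cleaves extracellular matrix proteins and binds members of the TGF-beta family, and its locus is associated with age-related macular degeneration.

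The probe named C1qtnf5 (NM_145613) lies at chr9:43916812-43916871 on the plus strand of mm9. Its list of accessions in the files also holds NM_147126, which the RefSeq table names as an Mfrp transcript. It was the only one of the 39429 probes to list that accession. The values called C1qtnf5 here therefore cannot be told apart into RNA of C1qtnf5 and of Mfrp, and no value of Mfrp alone can be given. The probe is shown because it is listed for both genes, with no base in capitals, 5′ to 3′ as in the files. Its place within either gene was not tested.

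C1qtnf5 probe: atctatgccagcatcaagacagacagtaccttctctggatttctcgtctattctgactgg

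Of the 3 reading frames of the strand as printed, frames 1 and 2 held 0 stop codons. The Htra1 probe (NM_019564) lies at chr7:138129081-138129140 on the plus strand of mm9. Each probe has 60 bases, 45% of them G or C. No other probe of the array shared a run of 20 bases with either of them.

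RefSeq (GRCm38.p6) gives C1qtnf5 and Mfrp the same gene start, so that both have the same promoter window. The 250 bases before that start (chr9:44101520-44101769, plus strand) are shown because a single window stands before both genes, and capitals mark GGATTA, which is TAATCC on the minus strand, the core that OTX and CRX homeodomain factors are known to bind.

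C1qtnf5 and Mfrp promoter: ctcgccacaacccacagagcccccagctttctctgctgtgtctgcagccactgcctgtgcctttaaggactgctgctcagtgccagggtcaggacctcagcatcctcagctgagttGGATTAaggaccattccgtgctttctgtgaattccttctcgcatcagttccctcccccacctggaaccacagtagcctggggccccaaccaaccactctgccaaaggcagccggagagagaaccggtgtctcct

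This match runs from -134 to -129 relative to the start. TAATCC was searched on both strands, as was CATGTG, while CACGTG is its own reverse complement. The last 2 are E-box letters that MITF, a pigment cell factor, is known to bind. Of 32817 promoter windows of 300 bases, 7.06% held TAATCC, 14.2% held CATGTG and 7.15% held CACGTG. The window of C1qtnf5 and Mfrp held neither E-box, and the window of Htra1 held none of the 3 motifs.

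The arrays differed in a few general respects. The median Cy5 signal over the spots ranged from 617 to 1534. Of the probes, 91.7% stood well above the Cy5 background on RPE replicate 2, against 62.1% to 71.3% on the other arrays. The arrays lay on 3 slides: CH and RPE replicates 1 and 3 on slide 2, all replicates 2 on slide 3, and PR replicates 1 and 3 on slide 1. Both member probes were well above background in both channels and unsaturated in Cy5 on all 9 arrays.

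The Cy5 mean signal of the C1qtnf5 probe, as scanned, was highest in the RPE. It read 95661, 131944 and 104081 on RPE replicates 1, 2 and 3. On the CH arrays it read 49685, 61550 and 72320, and on the PR arrays 10967, 11049 and 15278. The 3 tissues did not overlap, and the local background was between 53 and 67. The Cy3 reference at this probe lay between 28691 and 44109 over the 9 arrays, with the highest value on PR replicate 2.

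After normalization, C1qtnf5 had a log2(Cy5/Cy3) above 0, the level of the reference, in the RPE only (with median centring in place of loess the CH mean was also above it, at 0.17). The RPE values were 0.37, 0.55 and 0.50 for replicates 1, 2 and 3. The CH values were -0.54, -0.92 and -0.31, and the PR values were -2.56, -2.55 and -2.69. RPE was above CH on every array and CH above PR on every array. The CH was the most spread of the tissues, at a mean of -0.59 ± 0.31 (SD, n = 3), against 0.47 ± 0.094 (SD, n = 3) in the RPE and -2.60 ± 0.078 (SD, n = 3) in the PR.

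Between RPE and PR, the level of C1qtnf5 differed by 3.08 ± 0.14 (SE) on the log2 scale, a fold change (FC) of 8.43 (95% interval 6.73 to 10.6, B-H adjusted p = 1.07e-07, limma). This passed both thresholds of the study, an FC above 2.5 and a Benjamini-Hochberg (B-H) adjusted p-value below 0.01, which 10.2% of all probes passed in that direction. Between CH and PR the FC was 4.04 (95% interval 3.23 to 5.06, adjusted p = 1.34e-06, limma), also past both thresholds, as were 12% of all probes. On slide 3, the only slide that holds PR with the other tissues, 1 array per tissue gave log2 differences of 3.11 for RPE over PR and 1.64 for CH over PR. With the slide as a block these differences were 2.90 and 1.84, both past the thresholds.

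Between RPE and CH, the FC of C1qtnf5 was 2.09 (95% interval 1.67 to 2.61), a log2 difference of 1.06 ± 0.14 (SE). Its adjusted p of 0.00102 (limma) was below the threshold, but the FC stayed under 2.5, so that it was not called. Only 0.185% of all probes were called in this direction. Of the 2042 probes higher in the RPE with an adjusted p-value below 0.01, 1969 lay under the FC threshold, C1qtnf5 among them. At an FC above 2 and an adjusted p below 0.05 it did pass, as did 1.2% of all probes, and its difference was larger than that of 99.0% of the probes. The log2 difference was 0.86 within slide 2, with 2 arrays of each tissue, and 1.47 within slide 3, with 1 of each. The adjusted p was over 0.01, and the FC under 2, with median centring (0.0282, FC 1.79), with the Cy5 channel alone (0.0218, FC 1.89) and in the authors' series table (0.0305, FC 1.85). Without CH replicate 2 the FC was 1.86 (adjusted p = 0.00245, limma), so that the looser call was also lost.

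**Figure D1:**
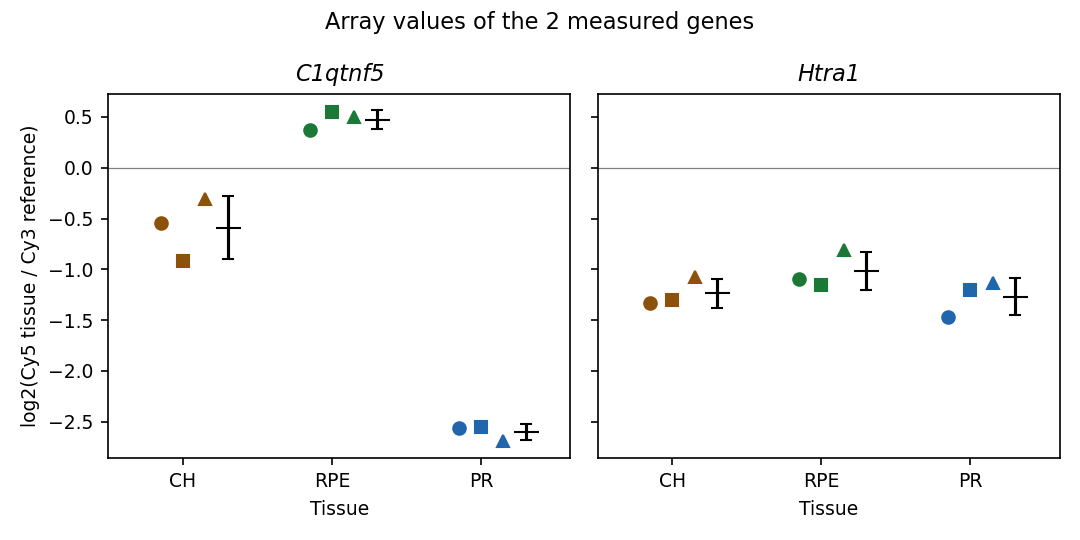
Normalized log2(Cy5/Cy3) of the C1qtnf5 probe (left) and the Htra1 probe (right) on each array, by tissue. Circles, squares and triangles are replicates 1, 2 and 3, black marks give the mean and SD of 3 arrays, and the grey line at 0 is the level of the reference. C1qtnf5 falls from 0.47 in the RPE to -2.60 in the PR with no overlap between tissues, while the Htra1 arrays of all tissues lie between -1.47 and -0.81.

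Htra1 showed no such order. Its Cy5 mean signal was 22734, 34912 and 31564 on CH replicates 1, 2 and 3. It was 27915, 35413 and 34604 on the RPE arrays, and 17949, 22781 and 33697 on the PR arrays. The 3 tissues overlapped. In the Cy3 reference channel, the 3 arrays of slide 3 read between 32968 and 35303 at this probe. The other 6 arrays read between 23247 and 27133. The log2 ratio divides by this channel, and whether it removes the gap was not tested.

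The log2(Cy5/Cy3) of Htra1 was -1.34, -1.30 and -1.08 in the CH, -1.10, -1.15 and -0.81 in the RPE and -1.47, -1.20 and -1.13 in the PR. All 9 arrays were below the reference, with loess, median centring or the processed signals of the software, and neighbouring tissues in the order of their means overlapped. The means were -1.24 ± 0.14, -1.02 ± 0.19 and -1.27 ± 0.18 (SD, n = 3 each). How far below the reference depended on the normalization: with median centring in place of loess the means were -0.60 in the CH, -0.64 in the RPE and -0.68 in the PR.

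None of the comparisons of Htra1 passed the threshold. The FC was 1.16 for RPE over CH (95% interval 0.946 to 1.43, adjusted p = 0.295, limma). It was 1.19 for RPE over PR (95% interval 0.967 to 1.46, adjusted p = 0.151). For CH over PR it was 1.02 (95% interval 0.831 to 1.26, adjusted p = 0.866), and this last difference changed sign with the processing. The intervals leave out an FC of 2.5 in either direction in each comparison, and they do not show that the levels were equal. Within slides the log2 differences were 0.25 (slide 2) and 0.15 (slide 3) for RPE over CH, 0.055 for RPE over PR and -0.096 for CH over PR. The SD within tissues, pooled over them, was 0.17 for Htra1 and 0.19 for C1qtnf5, against a median of 0.17 for the probes well above background on all 9 arrays.

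**Figure D2:**
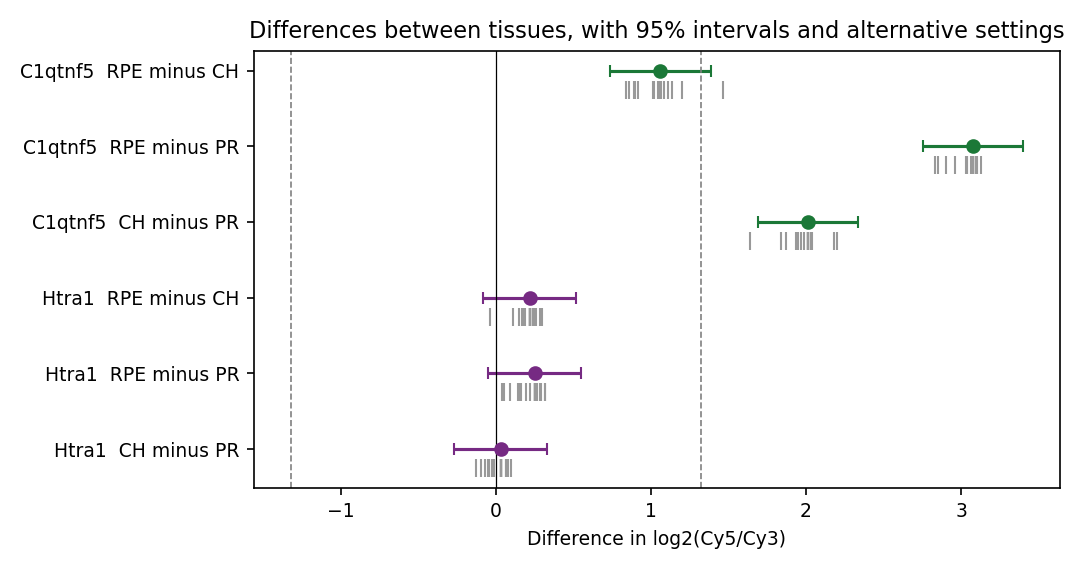
Differences in log2(Cy5/Cy3) between tissues for C1qtnf5 (green) and Htra1 (purple), with 95% intervals from limma on 9 arrays. Grey ticks under each are the values under the alternative settings and within slides, and dashed lines mark an FC of 2.5 in either direction. C1qtnf5 lies past the dashed line against the PR and short of it, at 1.06, for RPE minus CH, and Htra1 lies between 0.032 and 0.25.

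C1qtnf5 and Htra1 were then compared within each array, which removes what an array does to both alike. The difference of their log2 ratios was 1.47, 1.70 and 1.30 in the RPE, 0.79, 0.38 and 0.77 in the CH and -1.09, -1.35 and -1.56 in the PR. The tissues did not overlap. The exact permutation test of F over all 1680 assignments of the arrays gave p = 0.00357, the smallest it can give, for the 1 pair of genes that could be tested. The difference between the 2 genes thus varied over the tissues. C1qtnf5 alone also separated the tissues, so that a low p could be foreseen and the test does not show how Htra1 varied. The assignments took no account of the slides.

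Marker genes of the cell types were read on the same arrays, with the probes chosen as the brightest unsaturated one of a gene where there was one. Of the 10 RPE markers, 7 were called higher in RPE than in CH and 9 higher than in the PR. The shares over all probes were 0.185% and 10.2%. The Best1 probe, well above background on 2 of 9 arrays, was not called. Of the 10 marker probes, 5 were saturated on at least 1 array, 3 of them on all arrays of a tissue. Levels are thus given over the other 5. Their median log2 difference was 1.61 against the CH and 5.34 against the PR, next to 1.06 and 3.08 for C1qtnf5. Their summed Cy5 level was 864126 to 976927 in the RPE, 429353 to 634477 in the CH and 40600 to 67284 in the PR, so that the CH arrays also carried RPE marker signal. Within the CH, the median log2 ratio of these 5 was -0.066 in replicate 2, 0.19 in replicate 1 and 0.95 in replicate 3, and C1qtnf5 was in the same order at -0.92, -0.54 and -0.31. The orders differed in the RPE, with medians of 1.83, 2.29 and 1.67 in replicates 1, 2 and 3 against 0.37, 0.55 and 0.50 for C1qtnf5. They also differed in the PR, with -3.57, -2.77 and -2.98 against -2.56, -2.55 and -2.69. The part of RPE RNA in the CH value of C1qtnf5 was not tested. In bulk samples, fewer cells of a type and less RNA per cell cannot be told apart.

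Of the 10 rod markers, all were lower in the RPE and in CH than in PR by the same thresholds, which mark 5.22% and 6.4% of all probes in those directions. Rod markers were well above background on all arrays, and 8 of the 10 were saturated on at least 1 array. The other 2 had a summed Cy5 level of 102769 to 135955 in the RPE and 63159 to 103579 in the CH, against 380101 to 610137 in the PR. All 8 cone markers were called the same way in both comparisons. Fibroblast markers were called higher in CH than in RPE for 7 of 8, against 1.55% of all probes in that direction. Of the 9 endothelial markers, 0 were called between RPE and CH. Called higher in the CH and in RPE than in PR were 8, beside 12% and 10.2% of all probes. The endothelial markers had a summed Cy5 level of 254613 to 316433 in the RPE, 238591 to 332694 in the CH and 20830 to 30112 in the PR. The RPE arrays thus also carried endothelial marker signal. Called higher in CH than in RPE were also 4 of 8 melanocyte markers, 2 of 8 pericyte and smooth muscle markers and 2 of 7 immune markers. None of the 8 Müller glia, 9 inner retina, 5 red blood cell and 7 skeletal muscle markers was called between RPE and CH. Their part in the values of Htra1, which did not differ past the threshold, was not tested.

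**Figure D3:**
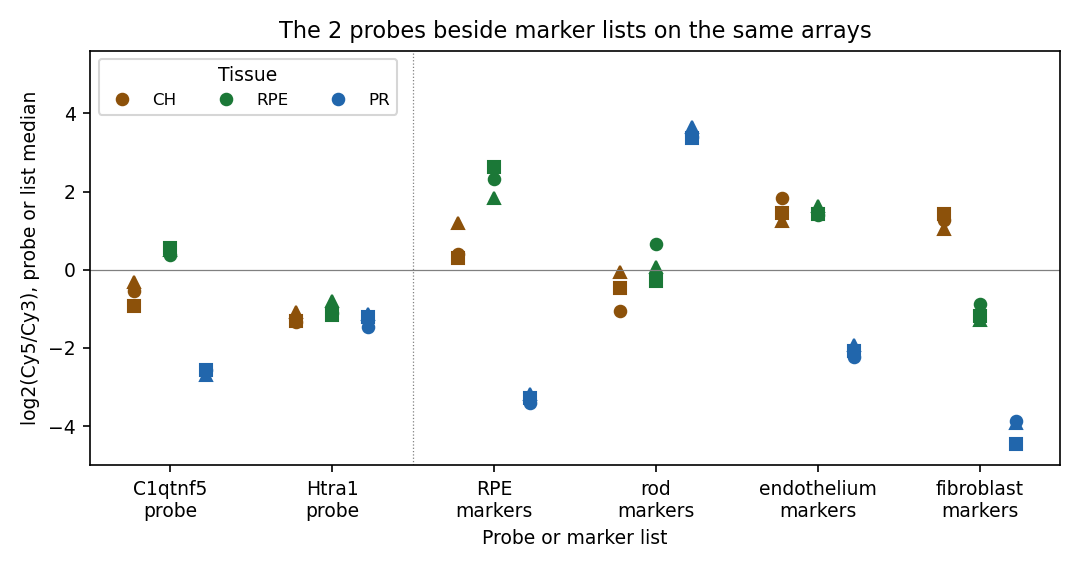
log2(Cy5/Cy3) of the 2 probes and the median log2(Cy5/Cy3) of 4 marker lists on each array. Colours give the tissue, and circles, squares and triangles are replicates 1, 2 and 3. C1qtnf5 and the RPE markers are both in the order RPE, CH, PR, and the medians of the RPE markers, saturated probes included, span 1.84 to 2.64 in the RPE and -3.41 to -3.16 in the PR.

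Among the relatives of C1QTNF5, the C1q and TNF related family, 13 genes were measured. The probes of C1qtnf6, Fam132b and Adipoq were well above background on 2 of 9 arrays each, and that of C1qtnf9 on 1. None of the 13 was called higher in RPE than in CH, where 0.185% of all probes were called higher and 1.55% lower. The 2 called lower there were C1qtnf7, at a log2 difference of -1.78 (adjusted p = 0.000135, limma), and C1qc, a chain of complement C1q, at -1.72 (adjusted p = 0.000208). Against the PR, 5 were called higher in the RPE, with C1qtnf7 at 3.53 and Fam132a at 1.98 the largest, and 6 higher in the CH, beside 10.2% and 12% of all probes. The median log2 difference of the family was -0.25 for RPE minus CH and 1.02 for RPE minus PR, beside 0.039 and -0.0072 over all probes. C1qtnf7 thus had its highest level in the CH, with a mean of 1.54 ± 0.21 (SD, n = 3) against -0.24 ± 0.17 in the RPE.

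Of the relatives of MFRP by its frizzled-related domain, 6 were measured and 0 were called higher in RPE than in CH. Among them, Sfrp4 and Sfrp2, secreted antagonists of Wnt signalling, were lower in RPE than in CH at -1.80 (adjusted p = 0.00012, limma) and -1.70 (adjusted p = 9.25e-05). Sfrp5 and Sfrp1, of the same group, were higher in RPE than in PR at 4.64 (adjusted p = 1.2e-07) and 4.03 (adjusted p = 5.1e-07). Between RPE and CH, Sfrp1 differed by 1.26 (adjusted p = 0.00527) and Sfrp5 by 0.98 (adjusted p = 0.0114), both short of a call. Between CH and PR, these 4 were all called higher in the CH, with log2 differences from 2.25 (Sfrp2) to 3.66 (Sfrp5). Over all probes, 0.185% were called higher and 1.55% lower in RPE than in CH. Against the PR, 10.2% of all probes were higher in the RPE and 12% higher in the CH. The Corin probe was well above background on 2 of 9 arrays.

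Eye size genes, of which 4 of 5 had a probe, gave 0 calls between RPE and CH. In that comparison 0.185% of all probes were called higher and 1.55% lower in the RPE. The Best1 probe, also in this list, was well above background on only 2 arrays. Against the PR, 10.2% of all probes were called higher and 5.22% lower in the RPE. Tmem98, a membrane protein gene, was higher in RPE than in PR by 4.12 (adjusted p = 1.77e-06, limma), and Crb1, an apical polarity gene of the retina, was lower (log2 difference -2.58, adjusted p = 1.47e-06). Myrf, a transcription factor gene, was called higher in RPE than in PR (adjusted p = 5.37e-06) and was not well above background on any PR array, so that no FC is given.

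Of the reported partners of C1QTNF5 and MFRP at the RPE, 3 genes are given. Cd36, a scavenger receptor gene, was higher in CH than in RPE (log2 difference for RPE minus CH -1.92, adjusted p = 0.000189, limma) and higher in RPE than in PR by 2.81. Adipor1, an adiponectin receptor gene, was lower in RPE than in PR (-1.44, adjusted p = 2.83e-06). Ppara was not called in any comparison.

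Of the proteases closest to HTRA1, Htra2, Htra3 and Htra4 had log2 differences from -0.67 to -0.033 for RPE minus CH and from -0.42 to 0.52 for RPE minus PR, and 0 of 3 were called in any comparison, as most probes were not. Among 17 substrates and partners of HTRA1 in the matrix, 10 were higher and 1 was lower in RPE than in PR, and 12 were higher and 1 was lower in CH than in PR. Over all probes, 10.2% were higher and 5.22% lower in RPE than in PR, and 12% higher and 6.4% lower in CH than in PR. In each of the fibroblast, pericyte and smooth muscle, and melanocyte lists, 7 of 8 were called higher in RPE than in PR, and 7, 8 and 7 of 8 were called higher in CH than in PR. Their part in the differences of these 17 genes, of which Dcn is also a fibroblast marker, was not tested. The largest differences for RPE minus PR were those of Thbs1, the thrombospondin 1 gene, at 5.96 (adjusted p = 4.32e-08, limma) and Bmp4 at 5.10 (adjusted p = 1.53e-07). Vtn, the vitronectin gene, was the 1 that was lower (-3.46, adjusted p = 3.08e-07).

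Between RPE and CH, 5 of these 17 genes were called, beside 0.185% of all probes higher and 1.55% lower in the RPE. The probes of Gdf6 and Acan were well above background on 0 and 2 of 9 arrays. Fn1, the fibronectin gene, and Tgfb3 were lower in the RPE, at -2.53 (adjusted p = 0.000135, limma) and -2.01 (adjusted p = 0.000181), and Bmp4 was higher at 1.46 (adjusted p = 0.0032). Dcn, the decorin gene, was saturated on all CH arrays and at least 2.26-fold higher there, a bound that, like those of Timp3 and Prph2, comes from the Cy5 channel after loess and Aquantile and is open to dye bias. Clu, the clusterin gene, was called higher in the RPE but was saturated on all arrays of both tissues, so that no FC is given.

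The 18 other inherited macular dystrophy genes gave 0 calls between RPE and CH, beside 0.185% of all probes higher and 1.55% lower in the RPE. Timp3 was saturated on all arrays of both tissues, and the Best1 probe was well above background on only 2 arrays. For these genes the lack of a call is therefore not informative. Only Abca4 had an adjusted p below 0.01 there (log2 difference 1.19, adjusted p = 0.00118, limma), and it stayed under an FC of 2.5. Against the PR, 4 were higher and 11 lower in the RPE, beside 10.2% and 5.22% of all probes. The 4 were Cdh3, the P-cadherin gene, at 6.99 (adjusted p = 2.54e-08, limma), Efemp1, a fibulin gene, at 2.43 (adjusted p = 0.000294), Ctnna1, the alpha-catenin gene, at 1.71 (adjusted p = 6.69e-07) and Timp3, a metalloproteinase inhibitor gene, saturated in the RPE, where its level was at least 7.78-fold higher. The Efemp1 difference rests on fewer than 3 PR arrays, since outlier spots were left out, and its SD in the RPE was 0.67. Prph2, a disc membrane gene saturated on all PR arrays, stood at least 2.20-fold above the RPE, and Impg2, an interphotoreceptor matrix gene, was lower in the RPE (-3.63, adjusted p = 1.65e-06). C1qtnf5 was thus on the side of the 4 genes that were higher in RPE than in PR, and Htra1 was on neither side.

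**Figure D4:**
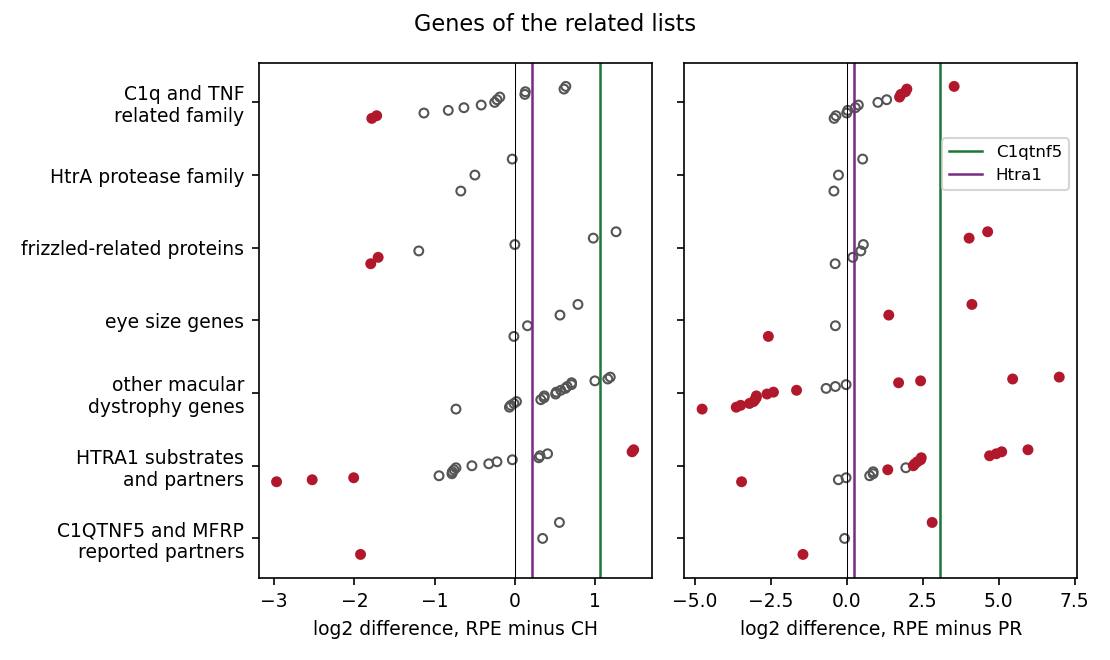
Differences in log2(Cy5/Cy3) of each gene of the 7 related lists, for RPE minus CH (left) and RPE minus PR (right). Filled red points passed both thresholds, open points did not, and vertical lines mark C1qtnf5 (green) and Htra1 (purple). Saturated or dim probes are drawn at their fitted value. The HtrA protease family has no filled point on either side, and the C1q and TNF related family has 2 on the left and 5 on the right.

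The genes most like C1qtnf5 were found by the root mean square (RMS) difference of the log2 ratios over the 9 arrays, each probe centred on its own mean. They were Slc2a12 (RMS 0.082), a glucose transporter gene, Pde1c (0.11), a calmodulin-dependent phosphodiesterase gene, and Wfdc6a (0.12), with 2 probes that carry no gene symbol among the 5. Slc2a12 had log2 differences of 1.07 for RPE minus CH and 3.03 for RPE minus PR. For Htra1 they were Oxa1l, a mitochondrial insertase gene, at 0.085, Ccdc167 at 0.086, Cep20 at 0.087, Syt3, a synaptotagmin gene, at 0.097 and Anapc15, an anaphase-promoting complex gene, at 0.099. These arrays share slides and a reference. Ranked by Pearson correlation instead, 1 of the 5 genes for C1qtnf5 and 3 of the 5 for Htra1 were the same.

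Genes around the probes were looked up within 100 kb after the values were known. Of 14 other probes near C1qtnf5, 0 were called between RPE and CH, where 0.185% and 1.55% of all probes were called in the 2 directions and C1qtnf5 itself was not. Between RPE and PR 2 of the 14 were called, beside 10.2% of all probes higher and 5.22% lower in the RPE. Between CH and PR 3 were called, beside 12% of all probes higher and 6.4% lower in the CH. The 3 probes of Rnf26, the closest gene, 2.05 to 3.90 kb away, were not called in any comparison. Usp2, a deubiquitinase gene, was lower in RPE than in PR (-1.97, adjusted p = 9.52e-06, limma), and 1 of the 2 probes of Mcam, an endothelial adhesion gene, was higher (1.96, adjusted p = 0.000132). Thy1 was called between CH and PR only, at 1.88 (adjusted p = 7.51e-05). Near Htra1 there were 2 probes, both of Plekha1, with 0 calls. The probe with the larger difference from the PR was -1.17 for RPE minus PR (adjusted p = 3.28e-06), under an FC of 2.5.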

How the data were processed

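The authors deposited Agilent Feature Extraction 9.5.3.1 output of 9 dual-colour arrays, with unnormalized intensity values (mean signal and median background) for each spot. The submitters' notes also name R 2.14.0 and limma. The series table that the authors deposited is on a log2 scale and follows Cy5 (r with log2 Cy5 between 0.985 and 0.999 per array), with the steps of its normalization not given in the sources used here, and it served as an alternative only.

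From these intensities, normexp (offset 50) and then loess within arrays gave log2(Cy5/Cy3), with limma 3.58.1 in R 4.3.3. Control spots and 228 to 586 outlier spots per array were left out, and spots of a probe were averaged. The linear model had 1 mean per tissue over all 9 arrays, with empirical Bayes moderation and B-H adjustment over 39429 probes. A call needed an FC above 2.5 and an adjusted p below 0.01. The comparison of CH with PR was added to those of the paper. On simulated arrays of 38847 probes with 200 changed in the RPE by log2 differences of 2 or 3, the fit recovered 188 for RPE minus CH and 189 for RPE minus PR and called 0 unchanged probes. These simulated sizes exceed the FC threshold, so that the smaller differences of C1qtnf5 for RPE minus CH and of Htra1 were not covered. Precision is limited by having 3 arrays per tissue.

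The members and the gene lists were chosen with earlier results of these data known. A gene of the list of reported partners is not reported here and was left out of its counts and plot. Of each list, the genes past both thresholds were counted and the 2 with the largest difference in each direction could be named, and all of them where 5 or fewer passed. The value of a gene is that of its brightest probe that was not saturated on all arrays of a tissue. The 5 genes most like a member were taken among probes well above background on all arrays of their highest tissue. Symbols came from RefSeq accessions for 26055 probes and from the files for 13374.

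The probe of C1qtnf5 was to be placed in coding sequence by a match to proteins, which was not run because no protein table was used here. Its reading frames were counted instead, with Python 3.11.15. The human arrays were not analysed here.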

Additional observations from a re-analysis of the deposited data

How the results depend on the processing

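The calls of C1qtnf5 against the PR held under all 22 tested alternatives, with log2 differences, within-slide values included, from 2.83 to 3.13 for RPE and 1.64 to 2.20 for CH. Against the CH, C1qtnf5 was higher in the RPE under all 24 alternatives (0.84 to 1.47) and not called under any of the 22 with a test. Some of these settings cannot move the difference itself, such as Aquantile, dim probes left out or an array of the third tissue left out. Values on slide 3, with 1 array per tissue, moved by more than the spread of replicates for C1qtnf5, RPE minus CH (1.47) and CH minus PR (1.64), and for Htra1, RPE minus PR (0.055). Htra1 was not called under any tested alternative. Its RPE minus CH difference turned to -0.036 with median centring. Its CH minus PR difference turned to -0.0096 with the processed signals, -0.023 with Cy5 alone, -0.13 with the slide as a block, -0.025 with array weights and -0.046 in the series table, and ran from -0.070 to 0.10 with 1 array left out. The causes were not tested.

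Probes called RPE over CH numbered 13 with median centring and 472 at the looser thresholds (FC above 2, adjusted p below 0.05), and from 21 (without CH replicate 2) to 175 (without CH replicate 3) with 1 array left out, with 45 without RPE replicate 2. Probes called CH over RPE numbered 1169 with median centring and 1411 at the looser thresholds. PR over RPE gave 3522 and PR over CH 4213 at the looser thresholds. The genes most like each member shared 1 and 3 of 5 names for C1qtnf5, and 3 and 1 for Htra1, by Pearson correlation and with median centring.

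Replicate numbers occur in every tissue. The deviations of same-numbered samples correlated between -0.13 and 0.36, and those of differently numbered samples between -0.37 and 0.28. These ranges overlap and do not decide whether the numbers pair samples, and the numbers were not taken as pairs. Among the replicate 2 arrays, which share a slide, the correlations were 0.20 (CH and RPE), 0.30 (CH and PR) and 0.32 (RPE and PR). Number and slide cannot be told apart for these arrays. With the replicate number as a block, RPE over CH had 68 calls and C1qtnf5 had adjusted p-values of 0.00251 (RPE minus CH) and 1.28e-06 (RPE minus PR), and no call of a member changed. The within-array comparison had no other probe pair to try. Dye bias cannot be told apart from level against the reference, since no dyes were swapped.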
